A study of Mus musculus with 6 samples.

Results

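Regulators of G protein signalling (RGS proteins) and receptors for sphingosine 1-phosphate (S1P) steer how lymphocytes move between blood, lymph and tissue. The genes described here are 7 RGS genes (Rgs1, Rgs2, Rgs3, Rgs10, Rgs14, Rgs16 and Rgs19), the S1P receptor genes S1pr1 and S1pr4, and Gnai2, which encodes the inhibitory G protein alpha subunit Gαi2. They were chosen by name, and all 10 were measured, among 12394 genes in all. Each gene was read from the Affymetrix probe set with the highest mean over the arrays, out of those annotated to that gene alone, and the 10 genes had 18 such probe sets.

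The series compared regulatory T (Treg) cells, CD4 T cells that restrain immune responses, obtained by sorting CD4+CD25+YFP+ cells of mouse lymph nodes and spleen. The 3 arrays labelled Gata3-deficient (titled GATA3KO) came from Gata3F/F Foxp3YFP-Cre mice, in which both alleles of the transcription factor gene Gata3 are floxed. The 3 arrays labelled Gata3-sufficient (titled WT) came from Gata3F/+ Foxp3YFP-Cre mice, with 1 floxed allele, so the cells of both groups carried the Cre and at least 1 floxed allele. The Cre is expressed from the Foxp3 locus together with YFP, which limits deletion to cells that have expressed Foxp3. The design text gives 3 mice per group, and age, sex and strain background were not given in the sources used here.

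S1P is abundant in blood and lymph and scarce inside lymphoid tissue, and lymphocytes follow this gradient through S1PR1 when they leave a lymph node. S1PR1, like chemokine receptors, signals through Gαi proteins, which are active while bound to GTP. RGS proteins speed the hydrolysis of that GTP and so shorten the signal, and several of them, Rgs1 and Rgs16 among them, dampen migration of lymphocytes towards chemokines.

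Values are log2 intensities as the authors normalized them, and array medians lay between 6.06 and 6.11. Gata3 itself read higher on the arrays labelled Gata3-deficient, at 9.83, 9.98 and 9.71, than on those labelled Gata3-sufficient, at 9.57, 9.41 and 9.47, with a limma log2 change of 0.35 ± 0.07 (SE, adjusted p = 0.0387). Gata3 no longer passed when deficient replicate 1 (0.0751) or 2 (0.133), sufficient replicate 2 (0.182) or 3 (0.0981) or the intensity trend (0.15) was left out, or over every probe set (0.0516). The sources used here do not say which stretch of Gata3 the Cre removes, and a probe set outside that stretch would not check the labels, so all directions below are those of the labels. Foxp3 lay near the bottom of the scale on its probe set, at 3.94 ± 0.12 and 3.90 ± 0.05 (SD, n = 3 each). Of 9 measured Treg cell markers, 8 lay above the 40th percentile of all probe sets, a log2 value of 5.25. Below that value a probe set is called dim here. Summed linear intensities of the Treg markers were 10179 to 10261 on the arrays labelled Gata3-deficient and 8572 to 9489 on those labelled Gata3-sufficient. These sums did not overlap, and 7 of the 9 markers had a positive change. Ctla4 made up the largest part of the sums, with means of 12.08 and 11.86 in log2 intensity. Tnfrsf4 alone passed (log2 change 0.32, limma adjusted p = 0.0186).

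On the first principal component over all genes (35.2% of the variance), the groups lay apart. Scaled to the largest absolute score, the arrays labelled Gata3-deficient stood at -1, -0.388 and -0.459 and those labelled Gata3-sufficient at 0.667, 0.747 and 0.432. On the second (25% of the variance, not scaled), deficient replicate 1 stood at 12.1, apart from deficient replicates 2 and 3 at -8.03 and -9.74. The arrays labelled Gata3-sufficient stood there at 5.18, 2.53 and -2.0. Without deficient replicate 1, the count of the 10 genes past the threshold was 0, as it was with it, and Rgs1, Rgs3, Rgs16 and S1pr1 had log2 changes of 0.24, 0.15, -0.44 and -0.29.

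Some markers of other leukocytes also moved with the labels. The 10 neutrophil markers, 8 of them dim, summed to 264.5 to 422.6 and 231.6 to 252.0 in linear intensity on the arrays labelled Gata3-deficient and Gata3-sufficient, and all 10 had a positive change. The 11 B cell markers, 8 of them dim, summed to 592.4 to 669.0 and 461.1 to 472.1, with 6 positive changes and Cd22 alone past the threshold. Cd22 averaged 8.13 and 6.98, and the mean log2 value of the B cell list overlapped between the groups, at 4.71 to 4.81 and 4.67 to 4.77. The sum of the 7 markers of CD8 T and NK cells, 2 of them dim, went the other way, at 380.0 to 437.2 and 475.3 to 558.8. The largest changes of that list were those of Klrd1 (-0.71) and Klrk1 (-0.57), neither past the threshold. Its 3 positive changes were small, those of Cd8a (0.08, dim), Cd8b1 (0.02) and Ncr1 (0.03, dim). Sums of the 13 macrophage and dendritic cell markers overlapped, at 5314 to 5528 and 5089 to 5558, with 11 positive changes, and Ctss made up most of the sum (12.22 and 12.23 in log2 intensity). The mean log2 value of that list did not overlap, at 5.85 to 6.07 and 5.68 to 5.82, and its Lyz2 (1.02) and Tyrobp (0.48) did not pass. The part of such cells in the values below was not tested. In sorted bulk cells, fewer cells of a type and less RNA per cell cannot be told apart.

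None of the 10 genes differed between the groups at an adjusted p under 0.05, in a comparison in which 2.21% of all genes did. Rgs1 and Rgs3 read higher on every array labelled Gata3-deficient than on any labelled Gata3-sufficient, and Rgs16 and S1pr1 read lower on every one. Of the 10 genes, 2 were thus separated upwards, as were 11.3% of all genes, and 2 downwards, as were 8.51%. Together these were 4 of 10, against 19.8% of all genes and 25.3% of the 7890 genes that were not dim. None of the 10 was dim. The same 4 genes had an unadjusted p under 0.05, as did 14.4% of all genes. In all, 4 of the 10 changes were positive, against 53% of all genes, and the median log2 change was -0.0035, against 0.0078 over all genes. The median size of the change, whatever its sign, was 0.134 for the 10 genes and 0.0795 for all genes. With 3 arrays against 3, an exact permutation test cannot give a p below 0.1, so each p below is limma's unless an exact permutation test is named.

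**Figure D1:**
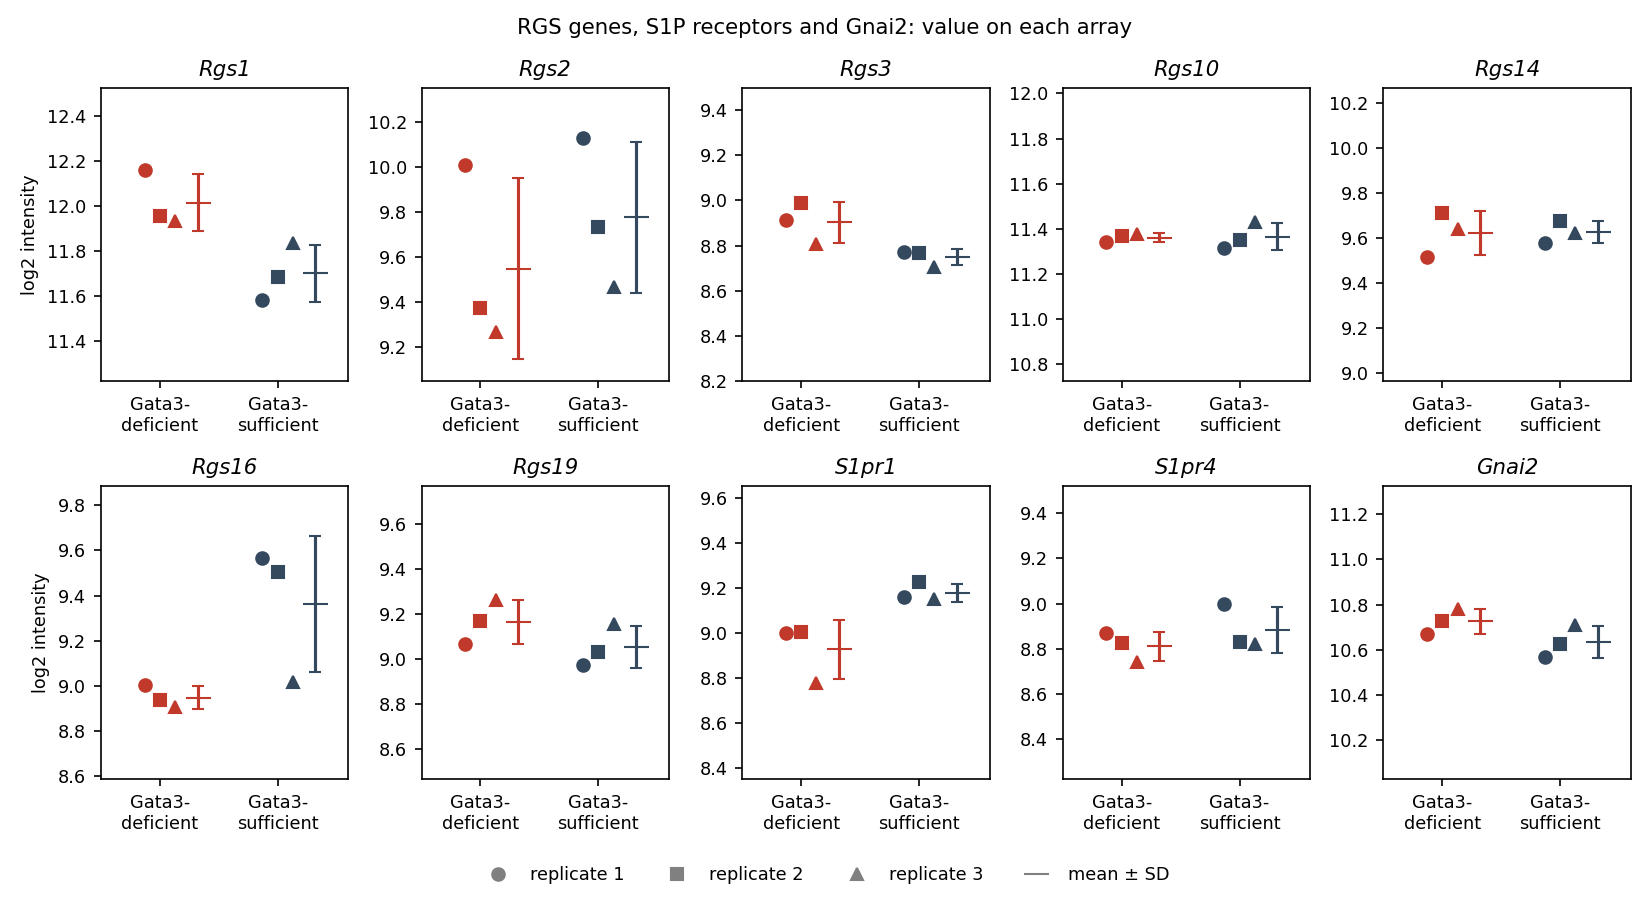
Log2 intensity of each of the 10 genes on each array, with arrays labelled Gata3-deficient on the left and Gata3-sufficient on the right of each panel, symbols for replicate numbers, and mean ± SD beside them (n = 3 each). All panels span the same log2 range, and the groups do not overlap in Rgs1, Rgs3, Rgs16 and S1pr1.

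Rgs16, an RGS protein induced by T cell activation, had the largest change of the 10. It read 9.002, 8.94 and 8.90 on the arrays labelled Gata3-deficient and 9.57, 9.50 and 9.02 on those labelled Gata3-sufficient. The values labelled Gata3-deficient lay close together, while sufficient replicate 3 lay just above them and well below the rest of its own group. The means were 8.95 ± 0.05 and 9.36 ± 0.30 (SD, n = 3 each), a log2 change of -0.41 ± 0.12 (SE) or 1.33-fold lower, which did not pass (adjusted p = 0.126). Without sufficient replicate 3 the change was -0.59 ± 0.06 and passed (adjusted p = 0.00592), and without any other array it lay between -0.44 and -0.31 and did not. Both other Rgs16 probe sets also had negative changes, -0.48 ± 0.15 and -0.19 ± 0.10 (SE). The first of these read 7.93, 7.78 and 7.73 against 8.70, 8.22 and 7.98, again with sufficient replicate 3 nearest to the arrays labelled Gata3-deficient. All 3 probe sets thus had the same sign, and none passed.

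Rgs1, a regulator abundant in activated and tissue-resident lymphocytes, had the largest positive change and the smallest p of the 10. It read 12.16, 11.95 and 11.93 on the arrays labelled Gata3-deficient and 11.59, 11.69 and 11.84 on those labelled Gata3-sufficient. The gap between the groups was narrow, with sufficient replicate 3 next to the lowest array labelled Gata3-deficient. The means were 12.02 ± 0.13 and 11.70 ± 0.13 (SD, n = 3 each), a log2 change of 0.31 ± 0.07 (SE) or 1.24-fold, with a 95% confidence interval of 0.15 to 0.48. It did not pass over all genes (adjusted p = 0.0677). It passed without sufficient replicate 3 (0.38 ± 0.07, adjusted p = 0.0467) and in no other fit with 1 array left out, where it lay between 0.24 and 0.35. Rgs1 has a single probe set on this array, so no other reading of it was available here.

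Rgs3, a larger RGS protein with several isoforms, read 8.91, 8.99 and 8.81 on the arrays labelled Gata3-deficient and 8.77, 8.77 and 8.71 on those labelled Gata3-sufficient. The groups were separated by a narrow gap, and the log2 change of 0.16 ± 0.06 (SE) did not pass (adjusted p = 0.246). All 4 Rgs3 probe sets had positive changes, of which the largest was 0.30 ± 0.08, and 3 of the 4 separated the groups. That probe set read 8.04, 7.97 and 7.73 against 7.66, 7.59 and 7.60, and it did not pass over all probe sets either (adjusted p = 0.13). Different Rgs3 probe sets can read different isoforms, and which they read was not analysed here.

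Rgs3, like Rgs19, has separate start sites. Since Gata3 is a DNA-binding protein, the stretches before the start sites of Rgs16, with the largest change, and of Rgs3 are shown. They are the 250 bases before each start in RefSeq on GRCm38.p6, on the plus strand, at chr1:153740103-153740352 for Rgs16, chr4:62559597-62559846 for the first Rgs3 start and chr4:62619422-62619671 for the second. Capitals mark a GATA-family motif, searched on both strands as AGATA or as TGATA, each followed by A or by G.
Rgs16: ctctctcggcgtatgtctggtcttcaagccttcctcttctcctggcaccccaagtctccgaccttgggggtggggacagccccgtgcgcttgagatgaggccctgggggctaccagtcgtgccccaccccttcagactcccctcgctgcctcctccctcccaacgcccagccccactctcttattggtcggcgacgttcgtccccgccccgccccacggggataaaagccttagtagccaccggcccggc
Rgs3 first start: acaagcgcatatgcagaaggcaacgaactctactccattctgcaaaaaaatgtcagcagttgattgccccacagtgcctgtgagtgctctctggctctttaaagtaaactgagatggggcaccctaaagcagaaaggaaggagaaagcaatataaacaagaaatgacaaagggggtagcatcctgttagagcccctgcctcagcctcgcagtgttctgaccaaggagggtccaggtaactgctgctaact
Rgs3 second start: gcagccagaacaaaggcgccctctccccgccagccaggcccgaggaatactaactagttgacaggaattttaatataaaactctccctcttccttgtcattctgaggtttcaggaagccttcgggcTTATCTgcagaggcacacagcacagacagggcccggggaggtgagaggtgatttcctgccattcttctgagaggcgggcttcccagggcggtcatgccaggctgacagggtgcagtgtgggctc

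The second Rgs3 window held 1 match, on the minus strand, and the Rgs16 and first Rgs3 windows held none. RefSeq windows were at hand for 6 of the 10 genes (Rgs2, Rgs3, Rgs10, Rgs16, Rgs19 and S1pr4). Those of Rgs19, not shown, held none. Of the 9 windows of the 6 genes, 1 held the motif, that of the second Rgs3 start. Over all genes, 26.5% of 32851 windows did. A match is a run of letters and not a measured binding site.

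Rgs2, which acts mainly on Gαq and is induced early in T cell activation, varied more among replicates than any other gene of the 10. It read 10.01, 9.37 and 9.27 on the arrays labelled Gata3-deficient and 10.13, 9.74 and 9.47 on those labelled Gata3-sufficient. The groups overlapped widely, and in each the values fell from replicate 1 to replicate 3. The log2 change was -0.23 ± 0.20 (SE, adjusted p = 0.681), with a 95% interval of -0.67 to 0.21. Leaving out deficient replicate 1 moved it to -0.46 and leaving out sufficient replicate 1 to -0.05, neither of which passed. With the replicate number as a block in the limma fit, the change was -0.23 ± 0.06 (SE) and did not pass either (adjusted p = 0.0816). The second Rgs2 probe set gave the same picture, at 9.78, 9.26 and 9.11 against 10.01, 9.63 and 9.19 (-0.22 ± 0.21, SE). The 95% interval of the main fit is wide, and changes in Rgs2 of either sign within it remain compatible with these values.

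Rgs10 and Rgs14 had the smallest changes and intervals on both sides of 0. Rgs10, a small RGS protein of leukocytes, read 11.34, 11.37 and 11.37 on the arrays labelled Gata3-deficient and 11.32, 11.35 and 11.43 on those labelled Gata3-sufficient. Its log2 change was -0.0046 with a 95% interval of -0.10 to 0.09 (adjusted p = 0.977). Rgs14, which also binds inactive Gαi through a GoLoco motif, read 9.52, 9.71 and 9.64 against 9.58, 9.68 and 9.62. Its change was -0.0024 with an interval of -0.13 to 0.13 (adjusted p = 0.994). For both genes the groups overlapped almost fully.

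Rgs19, also known as GAIP, an RGS protein that acts on Gαi subunits, read 9.07, 9.17 and 9.26 on the arrays labelled Gata3-deficient and 8.97, 9.03 and 9.16 on those labelled Gata3-sufficient. The groups overlapped, and the log2 change of 0.11 ± 0.07 (SE) did not pass (adjusted p = 0.51). Its second probe set, of a kind that can also read related transcripts, had a change of the other sign, -0.08 ± 0.08 (SE). The Rgs19 probe sets therefore gave no common direction.

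**Figure D2:**
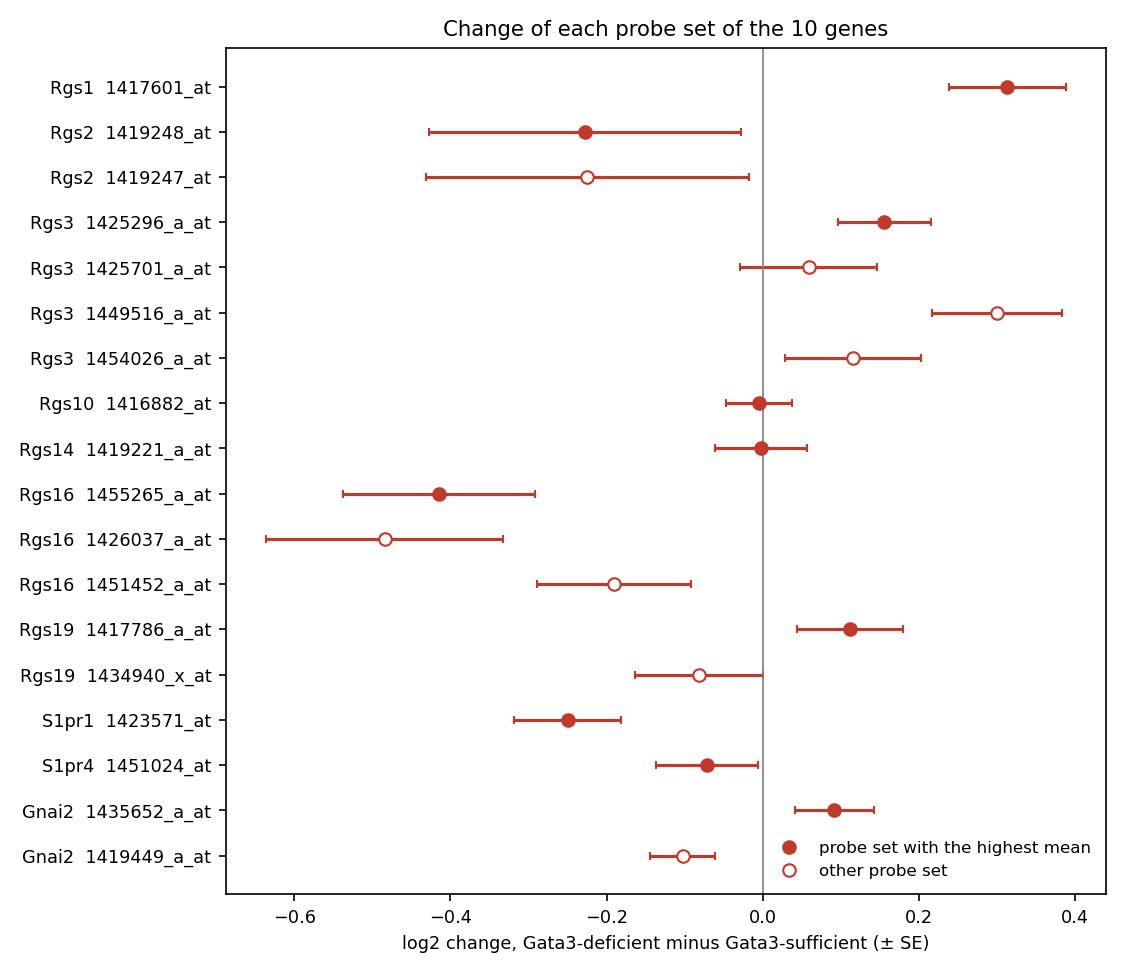
Log2 change ± SE (limma over all probe sets) of each of the 18 probe sets of the 10 genes, arrays labelled Gata3-deficient minus Gata3-sufficient, with filled points for the probe set with the highest mean of each gene. All 3 Rgs16 probe sets lie left of 0 and all 4 Rgs3 probe sets right of it, while the 2 probe sets of Gnai2 and of Rgs19 lie on opposite sides.

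S1pr1, the receptor lymphocytes need to leave lymphoid organs, was the more changed of the S1P receptor genes. It read 9.002, 9.01 and 8.78 on the arrays labelled Gata3-deficient and 9.16, 9.23 and 9.15 on those labelled Gata3-sufficient. Every array labelled Gata3-deficient lay below every other, with deficient replicate 3 the lowest of all 6. The means were 8.93 ± 0.13 and 9.18 ± 0.04 (SD, n = 3 each), a log2 change of -0.25 ± 0.07 (SE) or 1.19-fold lower, with a 95% interval of -0.40 to -0.10. It did not pass over all genes (adjusted p = 0.0987), nor in any of the 6 fits with 1 array left out, where it lay between -0.29 and -0.17. The smallest of these came without deficient replicate 3.

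S1pr4, an S1P receptor of haematopoietic cells that also couples to Gαi, read 8.87, 8.82 and 8.74 on the arrays labelled Gata3-deficient and 8.9995, 8.83 and 8.82 on those labelled Gata3-sufficient. The groups overlapped, and the log2 change was -0.07 ± 0.06 (SE, adjusted p = 0.689; 95% interval -0.21 to 0.07). Both S1P receptor genes thus had negative changes that did not pass. Whether they differed from each other was not tested.

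Gnai2, the main Gαi gene of lymphocytes, gave readings of opposite sign on its probe sets. The brighter read 10.67, 10.73 and 10.78 on the arrays labelled Gata3-deficient and 10.57, 10.63 and 10.71 on those labelled Gata3-sufficient, with overlapping groups and a log2 change of 0.09 ± 0.05 (SE, adjusted p = 0.454). The other read 10.18, 10.13 and 10.14 against 10.26, 10.23 and 10.27, with groups that did not overlap and a change of -0.10 ± 0.04 (SE, adjusted p = 0.324 over all probe sets). Within each array, the first minus the second gave 0.49, 0.60 and 0.64 in the arrays labelled Gata3-deficient and 0.31, 0.40 and 0.44 in those labelled Gata3-sufficient. These differences averaged 0.58 ± 0.08 and 0.38 ± 0.07 (SD, n = 3 each) and did not overlap (exact permutation test, two-sided, p = 0.1, the smallest that 3 against 3 arrays can give). No direction for Gnai2 as a gene was therefore taken from these data. The same within-array difference for Rgs19 overlapped between the groups (exact permutation p = 0.2). Only Gnai2 and Rgs19 were tested in this way, and their probe sets already had changes of opposite sign. Neither p is therefore separate support for a difference between probe sets.

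**Figure D3:**
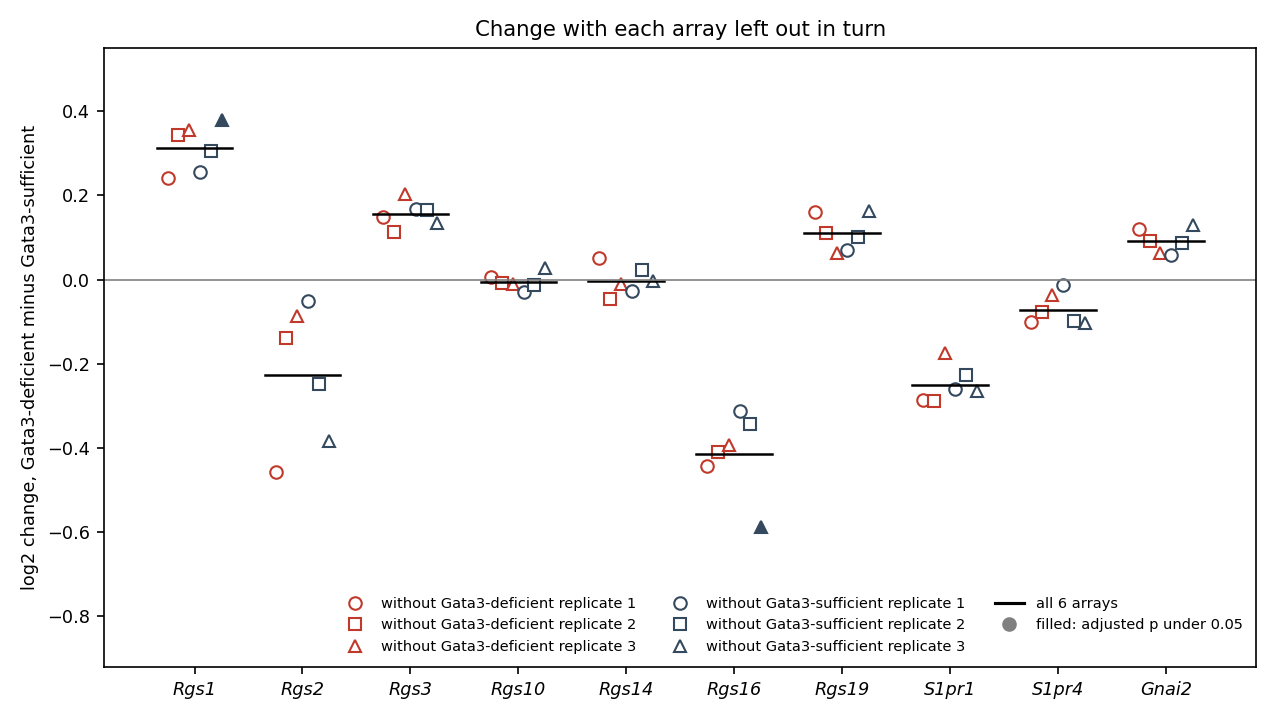
Log2 change of each of the 10 genes, arrays labelled Gata3-deficient minus Gata3-sufficient, with all 6 arrays (bars) and after dropping each array singly (points, filled where the adjusted p was under 0.05). Only Rgs1 and Rgs16 have a filled point, in both genes the fit without sufficient replicate 3, and Rgs2 spans the widest range, -0.46 to -0.05.

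No gene of the 10 passed, so profiles were matched to Rgs1, which had the smallest p. Over the 6 arrays, the 3 nearest of 12126 named genes were Tnfrsf11a (the receptor RANK), Sema6c (a semaphorin) and Trim46, with root mean square differences of 0.0187, 0.0424 and 0.043 log2 units after each gene was centred on its mean. Tnfrsf11a read 5.59, 5.34 and 5.34 on the arrays labelled Gata3-deficient and 4.96, 5.09 and 5.25 on those labelled Gata3-sufficient. Its log2 change of 0.32 ± 0.11 (SE) did not pass (adjusted p = 0.213), and neither did those of Sema6c (0.32) and Trim46 (0.29). The Tnfrsf11a probe set used averaged 5.26, next to the dim value of 5.25. The other Tnfrsf11a probe set had a change of 0.07 and the other Sema6c probe sets 0.08 and 0.19, all with overlapping groups. Whether matches this close would arise anyway among so many genes was not tested.

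The genes around these 10 were read from 7 lists of the same pathway, with 101 genes measured of 128 listed. Of the 101 genes, 3 were higher and 3 lower at an adjusted p under 0.05, where 1.44% of all genes were higher and 0.766% lower. They were Gng10, Cxcr5 and Ccr6, which rose, and Klf3, Cxcr6 and Adcy6, which fell. The 6 genes are spread over 4 lists, and none of them is an RGS gene or an S1P receptor gene. The lists were chosen with earlier results of these data known, so these counts do not test the pathway.

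Among other RGS genes, 10 of 14 were measured, 8 of them on dim probe sets, and none passed (limma, 0 also at an unadjusted p under 0.05; median log2 change 0.04). The nearest were Rgs7 (-0.17, adjusted p = 0.409), Rgs4 (0.16, 0.631) and Rgs11 (0.14, 0.633), and Rgs4 had probe sets of both signs. Rgs1 and Rgs2 lie in a cluster of RGS genes on chromosome 1, in the order Rgs2, Rgs13, Rgs1, Rgs21 and Rgs18. The measured members of that cluster had log2 changes of -0.23 (Rgs2), 0.31 (Rgs1) and 0.10 (Rgs18, dim), of which none passed. Rgs13 and Rgs21, which lie between them, were not analysed here, so no adjacent pair was compared.

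Of 12 other S1P and lysophospholipid receptor genes, 6 were measured, 5 on dim probe sets, and none passed (2 at an unadjusted p under 0.05; median -0.10). S1pr3 had a change of -0.23 (adjusted p = 0.362), and the lysophosphatidic acid receptor genes Lpar1 and Lpar4 had 0.42 (adjusted p = 0.258) and -0.22 (adjusted p = 0.326), all 3 on dim probe sets. The other Lpar1 probe sets, also dim, had changes of 0.12 and -0.01. S1pr1 and S1pr4 were thus the only S1P receptor genes of those measured here that were not dim.

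In the list of S1P metabolism and lymphocyte egress, Klf3 fell. Klf3 encodes a Krüppel-like repressor that binds the same CACCC elements as Klf2, the factor known to drive S1pr1 transcription in T cells. It read 8.39, 8.46 and 8.39 on the arrays labelled Gata3-deficient and 8.90, 8.75 and 8.79 on those labelled Gata3-sufficient, with a clear gap between the groups. The log2 change was -0.40 ± 0.06 (SE) or 1.32-fold lower (adjusted p = 0.00967), and each of the 6 fits without 1 array kept the call. Its other probe sets had changes of -0.51 ± 0.09 and -0.29 ± 0.12 (SE). Klf2 read 11.01, 10.93 and 10.93 against 11.13, 11.02 and 10.97, which overlapped, with a change of -0.08 ± 0.05 (SE, adjusted p = 0.511). In all, 13 of 18 genes of that list were measured, with 1 lower, 0 higher and a median of -0.06. The Klf3 call was lost without limma's intensity trend (adjusted p = 0.0623).

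Among G protein subunits, 24 of 29 genes were measured, with 1 higher, 0 lower and a median of 0.02. Gng10, which encodes a G protein gamma subunit, read 10.56, 10.54 and 10.58 on the arrays labelled Gata3-deficient and 10.15, 10.29 and 10.29 on those labelled Gata3-sufficient. The arrays labelled Gata3-deficient lay very close together and above all others, a log2 change of 0.32 ± 0.05 (SE) or 1.25-fold (adjusted p = 0.0136). Gng10 no longer passed when deficient replicate 2 (adjusted p = 0.0623) or 3 (0.0553) or the intensity trend (0.101) was left out.

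Among G protein effectors, 20 of 23 genes were measured, with 1 lower, 0 higher and a median of 0.0023. Adcy6, which encodes an adenylyl cyclase that Gαi inhibits, read 6.31, 6.31 and 6.24 on the arrays labelled Gata3-deficient and 6.67, 6.94 and 6.79 on those labelled Gata3-sufficient. The groups lay well apart, with a log2 change of -0.51 ± 0.09 (SE) or 1.43-fold lower (adjusted p = 0.0203). Adcy6 no longer passed when replicate 2 or 3 of either group (adjusted p from 0.0612 to 0.107) or the intensity trend (0.0563) was left out.

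Genes of G protein exchange and receptor desensitisation, such as receptor kinases and arrestins, had 12 of 15 measured and none past the threshold (2 at an unadjusted p under 0.05; median -0.04). Gpsm2, which binds inactive Gαi, had a change of 0.31 (adjusted p = 0.202), Pdcl, a phosducin-like gene, -0.14 (0.298), and the receptor kinase gene Grk6 0.10 (0.404).

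The last list held mostly genes of chemoattractant receptors that signal through Gαi and so are open to RGS proteins. Of its 17 genes 16 were measured, with 2 higher, 1 lower and a median of -0.07. Cxcr5 (0.54 ± 0.08, SE, adjusted p = 0.0116), the receptor for entry into B cell follicles, and Ccr6 (0.57 ± 0.11, adjusted p = 0.0376) rose. Cxcr6 fell by 0.47 on the log2 scale (adjusted p = 0.0398), with -0.54 on its second probe set. Of the 6 fits that drop an array, 5 kept the Cxcr5 call (adjusted p = 0.07 without sufficient replicate 2). Ccr6 kept its call in 2, and did not pass without any 1 of the arrays labelled Gata3-deficient or without sufficient replicate 2 (adjusted p up to 0.104). Cxcr6 kept its call in 1, the fit without sufficient replicate 1 (adjusted p up to 0.182 in the others). Without the intensity trend none of these 3 receptors passed (adjusted p = 0.0714 for Cxcr5, 0.14 for Ccr6 and 0.143 for Cxcr6). Cxcr6 also missed the threshold when its probe sets were averaged (0.0556) and when p was adjusted over every probe set (0.0523).

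**Figure D4:**
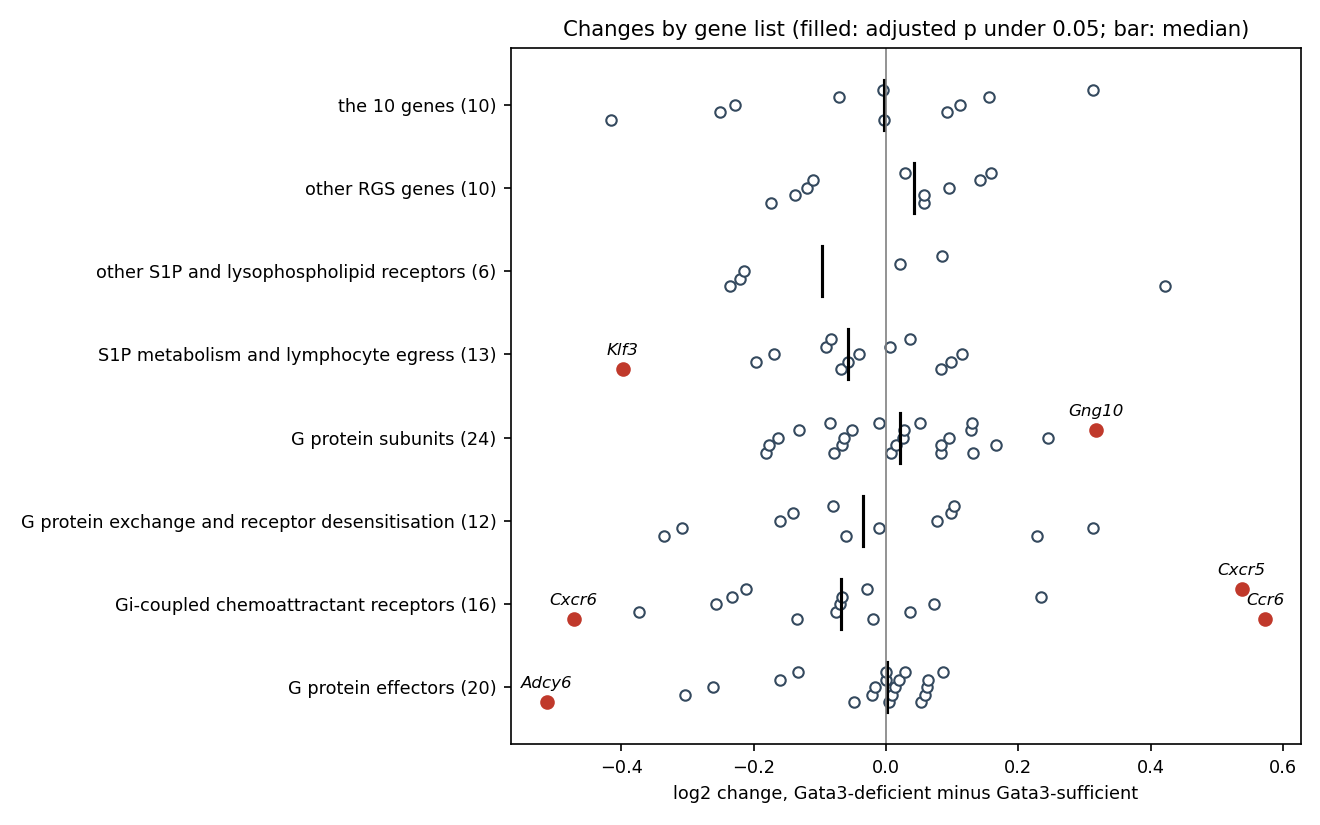
Log2 change, arrays labelled Gata3-deficient minus Gata3-sufficient, of each measured gene of the 10 and of 7 further lists (number of genes in brackets), with bars at the list medians. The 6 filled and named points passed an adjusted p under 0.05, and none of them is among the 10 genes.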

How the data were processed

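RNA of sorted mouse Treg cells was hybridised to Affymetrix arrays, 3 for each group. The deposited values are log2 intensities of 22690 probe sets on 6 arrays, which the authors made by RMA, per the submitters' processing notes, with no version. RMA corrects background, normalizes quantiles between arrays and summarises probes. That the values are log2 was judged from their range. Scanner files and batch information were not used here, and precision is limited by the number of arrays.

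The platform annotation gave 20393 probe sets 1 gene, 691 several and listed 1606 not at all. Only the first were used, with the highest-mean probe set for each of 12394 genes. Groups were taken from the array titles and compared with limma 3.58.1 in R 4.3.3 (lmFit, eBayes with an intensity trend, two-sided), with Benjamini-Hochberg adjustment over all genes and a threshold of 0.05. SEs are limma's moderated ones. Single probe sets were tested in a fit over all 22690. The fit was tested on simulated data. Figures were drawn with matplotlib 3.10.9.

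The 10 genes, the pathway and marker lists and the naming rule were chosen with earlier results of these data known. Named were the 10 genes, Gata3, Foxp3, from each pathway list every gene past the threshold or else up to 3 with the smallest p, and the 3 genes nearest to Rgs1. Klf2, Rgs18, Tnfrsf4, Ctla4, Cd22, Klrd1, Klrk1, Cd8a, Cd8b1, Ncr1, Ctss, Lyz2 and Tyrobp were named after their values were seen. No set test was run. The array titles do not say whether replicate numbers pair the mice. Deviations of same-numbered arrays from their group means correlated at 0.0388, -0.0176 and 0.0702 across genes. With so few arrays these values cannot settle it, and the main comparison was made unpaired. As alternatives, the replicate number was a block, an array was dropped, or the variance model, filter, normalization, array weights, probe set choice or threshold was changed.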

Additional observations from a re-analysis of the deposited data

How the results depend on the processing

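Over 16 alternatives, the 10 genes gave 160 values. Of these 146 kept their direction and their side of the threshold, 7 newly passed and 7 changed sign. The number of the 10 past the threshold, 0 as reported, was 1 with the replicate block (Rgs16, adjusted p = 0.0416), 1 with renewed quantile normalization (Rgs1, 0.0478), 3 with array quality weights (Rgs1, 0.0327; Rgs16, 0.0416; S1pr1, 0.0453), and 2 at an adjusted p under 0.10 (Rgs1 and S1pr1). It ranged from 0 to 2 with 1 array left out. Sign changes were limited to small values: Rgs10 was 0.0026 and Rgs14 0.0226 with array quality weights, and with 1 array left out they ranged from -0.0295 to 0.0281 and from -0.0464 to 0.0507. Gnai2 was -0.0055 and Rgs4 -0.0031 when all probe sets of a gene were averaged, and Foxp3 ranged from -0.0225 to 0.0961 with 1 array left out. The cause of these shifts was not tested.

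Over all genes, 274 passed (179 higher, 95 lower). The count was 54 without the intensity trend (31 and 23), 585 with array quality weights (400 and 185), 525 at an adjusted p under 0.10 (343 and 182) and 57 under 0.01 (34 and 23). With 1 array left out it ranged from 62 to 270 (35 to 165 higher, 24 to 105 lower). The replicate block gave 368 genes. Deficient replicates 1 and 3 correlated best with the sufficient array of their own number, and deficient replicate 2 did not. Whether the numbers pair mice is therefore not known here. Of the other named genes' 314 values, 282 stayed as reported, 30 no longer passed and 2 changed sign. Among the 10 genes, Rgs2 had the largest SE in the main fit, and Foxp3 and most other RGS and S1P receptor genes lay on dim probe sets.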
